A study of Mus musculus with 20 samples.

Results

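Chemokines and their receptors were described in 2 mouse tissues. The trigeminal ganglia (TG) hold cell bodies of the sensory neurons that serve head and face, and the nucleus accumbens (NAc), in the ventral striatum, takes part in reward. The genes were chosen by name: ligands of the Ccl and Cxcl series with Cx3cl1 and Xcl1, receptors of the Ccr and Cxcr series with Xcr1, and the atypical receptors Ackr1, Ackr2, Ackr3 and Ackr4. Each had to reach 10 counts summed over all libraries. The rule was met by 58 of the 32941 named genes in the count table. A further 3 symbols of the pattern fell under the minimum, since Ccl21c and Ccl21d were at 0 in every library and Ccr8 had 3 counts in all. Cx3cr1, the receptor of Cx3cl1, lies outside the naming rule and is given only as a partner gene.

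The 20 RNA-seq libraries came from 10 male C57BL/6J mice aged 9 to 12 weeks, with no genetic change named in the labels. The 5 mice labelled OIH are the morphine mice of the series title, and the other 5 mice had vehicle. TG and NAc were taken from each mouse 24 hours past its final injection, so that morphine TG, vehicle TG, morphine NAc and vehicle NAc had 5 libraries each. The labels state no dose, route or number of injections. RNA came from bulk tissue in every group, so fewer cells of a type and less RNA per cell cannot be told apart in any result.

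Chemokines are small secreted proteins that guide migrating cells along gradients, and nearly all act through G protein-coupled receptors that signal through inhibitory G proteins. Atypical receptors bind chemokines without that signal and remove or transport them. In sensory ganglia and brain, ligands from neurons, glia, vessels and fibroblasts act on resident macrophages, microglia and arriving leukocytes, and some neurons carry the receptors too. Chemokine signalling has been studied in opioid tolerance and in the pain that opioids can cause, and opioid and chemokine receptors can desensitise each other.

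Summed counts per library were 61285916 to 76110288 in TG, against 52402037 to 64357778 in NAc. The genes described here held 14182 to 17466 counts per TG library and 36031 to 62514 counts per NAc library. Both tissues carried their own markers. Summed over 7 genes, sensory neuron markers had 3325 to 3972 CPM (counts scaled to a common library size) in TG libraries and 5.91 to 16.2 CPM in NAc libraries. The 7 markers of medium spiny neurons, the main neurons of the striatum, summed to 38.0 to 46.0 CPM in TG and 1230.0 to 4012 CPM in NAc. Pituitary markers, led by Gh, varied between 19.9 and 1433 CPM over the TG libraries, against 2.01 to 6.14 CPM in NAc.

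Levels of different genes were compared per transcript length, as TPM (counts per transcript length, scaled to a common sum per library), over the 10 libraries of a tissue. A few genes held most of the chemokine and receptor RNA. In TG, 8 genes held 87.7% of the summed TPM, and 27 of the 58 genes averaged at least 1 TPM. In NAc, 8 genes held 96.4%, and 21 genes averaged at least 1 TPM. At the low end, 9 genes in TG and 11 in NAc averaged under 0.1 TPM.

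Ackr1, the Duffy receptor that binds inflammatory chemokines on red cells and venules, was the highest in TG, with a lowest, median and highest level of 233, 263 and 277 TPM. Ccl27a, a skin-homing ligand of Ccr10, followed at 76.2, 80.5 and 86.7 TPM. Cxcl12, the ligand of Cxcr4 and Ackr3, came next at 29.5, 33.3 and 36.7 TPM. The ranges of these 3 genes did not meet, so their order held in every library. Ccl11 (eotaxin, a ligand of Ccr3) had 18.5, 22.7 and 26.98 TPM, and Cxcr4 had 14.3, 18.7 and 23.4 TPM. Their ranges overlapped, so the 2 genes were not told apart. Cx3cl1 (fractalkine) at 7.64 to 10.96 TPM, Cxcl10 at 3.71 to 18.2 TPM and Cxcl11 at 5.67 to 8.195 TPM followed and overlapped one another.

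NAc had another order. Cx3cl1, a ligand made by neurons and held on their membrane until it is shed, led with a lowest, median and highest level of 437, 660.5 and 813 TPM. Ccl27a followed at 232, 288 and 317.5 TPM, and the 2 ranges did not meet. Ackr1 had 88.5, 102 and 119.9 TPM, and Cxcl14, a ligand with no agreed receptor, had 86.3, 93.3 and 117 TPM. The ranges of Ackr1 and Cxcl14 overlapped, and both lay above that of Cxcl12 at 32.5, 39.7 and 46.2 TPM. Ccl21b, a copy of the lymphoid ligand Ccl21, varied most among the leading genes, between 0.441 and 51.6 TPM with a median of 23.3 TPM. Ccl25 (8.215 to 11.4 TPM) and Ackr3 (6.91 to 9.89 TPM) completed the 8 highest. Ccl21b was at 0 in all TG libraries. It shares nearly all of its sequence with other Ccl21 copies, as Ccl27a does with Ccl27b, so the split of counts within these groups is uncertain.

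**Figure D1:**
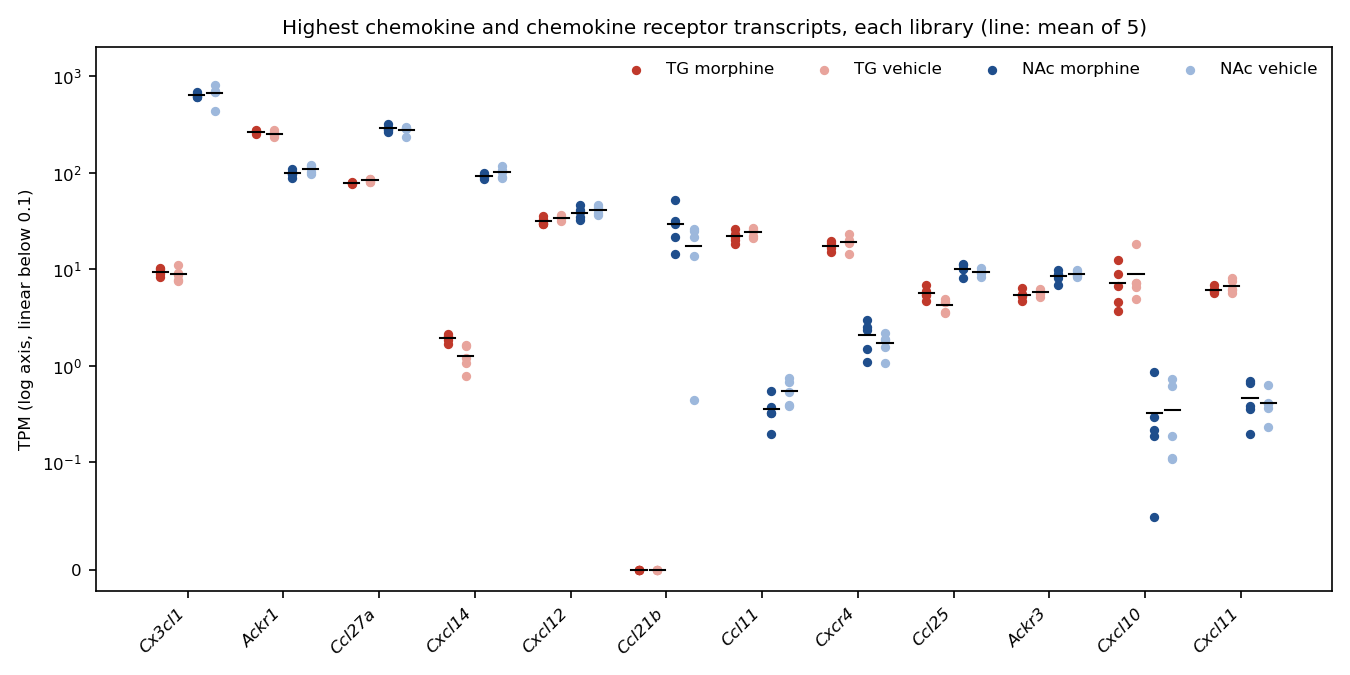
TPM on a log axis of the genes among the 8 highest in either tissue, with points for libraries and lines for means of 5 in morphine TG, vehicle TG, morphine NAc and vehicle NAc. Cx3cl1 and Cxcl14 lay far lower in TG than in NAc, Ccl11 and Cxcr4 far higher, and Ccl21b was at 0 in every TG library.

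By role, atypical receptors had the largest share in TG and membrane-bound ligands (Cx3cl1 and Cxcl16) the largest in NAc. These shares rested almost wholly on Ackr1 in TG and on Cx3cl1 in NAc. Ackr1 averaged 266.5 TPM in morphine TG and 254 TPM in vehicle TG, and Cx3cl1 634 and 662 TPM in morphine and vehicle NAc. Ackr1 shares 493 bases with Cadm3 on the same strand, and the part of Cadm3 reads in its level was not tested. Summed over 4 genes, atypical receptors had 272.5 ± 8.37 TPM in morphine TG and 261 ± 16.6 TPM in vehicle TG, against 112 ± 8.93 TPM in morphine NAc and 123 ± 11.9 TPM in vehicle NAc (SD, n = 5 each). Membrane-bound ligands summed to 12.7 ± 1.26 and 13.04 ± 1.73 TPM in morphine and vehicle TG, and to 635 ± 35.9 and 663 ± 137 TPM in morphine and vehicle NAc. The 3 interferon-induced ligands Cxcl9, Cxcl10 and Cxcl11 summed to 14.3 ± 3.56 and 16.9 ± 6.74 TPM in morphine and vehicle TG, and to 1.08 ± 0.586 and 1.04 ± 0.405 TPM in morphine and vehicle NAc. Ligands of neutrophils (Cxcl1, Cxcl2, Cxcl3, Cxcl5 and Cxcl15) stayed low in both tissues, at 0.644 ± 0.154 and 0.767 ± 0.232 TPM in morphine and vehicle TG, and at 1.995 ± 0.466 and 1.66 ± 0.636 TPM in morphine and vehicle NAc.

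The tissues were compared in morphine mice and again in vehicle mice with the quasi-likelihood test of edgeR at an adjusted p of 0.05. Of the 58 genes, 42 had enough counts to be tested. In morphine mice 34 differed, 19 of them higher in TG and 15 lower, and in vehicle mice 33 differed, 20 higher and 13 lower. Over all features tested, 68.2% differed in morphine mice (33.4% higher and 34.9% lower in TG) and 67.4% in vehicle mice (32.9% higher and 34.5% lower), so a difference between the tissues was the common case for any gene. The median log2 fold change, TG over NAc, was 0.25 over the 42 genes in morphine mice and 0.07 in vehicle mice, beside -0.06 over all features in both. In morphine mice the log2 fold changes included -5.31 ± 0.15 for Cxcl14, -5.81 ± 0.16 for Cx3cl1, 6.19 ± 0.23 for Ccl11 and 3.34 ± 0.24 for Cxcr4 (SE). Of the calls, 31 were shared with the same direction, 19 higher and 12 lower in TG. Ackr4 and Cxcr2 passed in vehicle mice alone, with adjusted p of 0.0734 and 0.111 in morphine mice. Ccl24, Ccr4 and Ccr7 passed in morphine mice alone, with adjusted p of 0.0828, 0.22 and 0.481 in vehicle mice, and no test of the difference passed for any of the 5.

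Ligands on the membrane differed in opposite directions. Cx3cl1 had 8.78, 10.3, 9.04, 10.4 and 13.03 CPM in the vehicle TG libraries 1 to 5, against 672, 420.0, 669.5, 677 and 799 CPM in vehicle NAc. All 5 TG libraries lay far below all 5 NAc libraries, among which vehicle 2 was the lowest. The log2 fold change was -5.97 ± 0.16 (SE, edgeR adjusted p = 3.02e-16). Its receptor Cx3cr1, which marks microglia and macrophages, had 8.74 ± 1.90 CPM in vehicle TG and 50.2 ± 6.49 CPM in vehicle NAc (SD, n = 5 each), a log2 fold change of -2.52 ± 0.13 (edgeR adjusted p = 3.49e-12). Cxcl16, which binds Cxcr6 on T cells and also exists in a shed form, went the other way. It had 3.90, 4.27, 3.59, 3.57 and 4.605 CPM in vehicle TG, against 0.755, 0.638, 0.5495, 0.708 and 0.783 CPM in vehicle NAc. The groups lay apart, with a log2 fold change of 2.53 ± 0.15 (SE, edgeR adjusted p = 2.79e-11). Cxcl16 overlaps Zmynd15 on the opposite strand.

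Among the other CXC ligands, Cxcl14 showed the smallest p. Vehicle TG had 0.767, 0.666, 0.501, 1.07 and 1.06 CPM, against 62.6, 48.2, 55.55, 57.9 and 47.2 CPM in vehicle NAc. The NAc libraries were close together and lay far above all 5 TG libraries. The log2 fold change was -6.06 ± 0.16 (SE, edgeR adjusted p = 1.8e-16). Cxcl12 was at like levels. It had 54.2, 53.3, 51.3, 57.3 and 60.6 CPM in vehicle TG and 51.3, 49.3, 61.4, 57.3 and 63.1 CPM in vehicle NAc, and the groups overlapped fully (log2 fold change -0.03 ± 0.09, edgeR adjusted p = 0.806). Of its transcript models, the longest (5627 bases) took 66.9 ± 4.04% of the gene's counts in vehicle TG and 75.3 ± 6.69% in vehicle NAc (SD, n = 5 each), and the shortest (1878 bases) 23.4 ± 3.17% and 17.8 ± 6.60% in the same groups. These shares rest on the authors' model-based split between isoforms and were not tested. Cxcl5, which draws neutrophils, was called lower in TG (-1.45 ± 0.33, edgeR adjusted p = 0.00072), and the B cell ligand Cxcl13 was not called.

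The 3 genes of interferon-induced Cxcr3 ligands, Cxcl9, Cxcl10 and Cxcl11, all passed as higher in TG in both kinds of mice. Cxcl11 was counted on a RefSeq transcript recorded as non-coding, so its values describe RNA and give no view of a protein. In vehicle mice the log2 fold change was 4.88 ± 0.67 for Cxcl10, 4.30 ± 0.30 for Cxcl11 and 2.45 ± 0.38 for Cxcl9 (SE, edgeR adjusted p = 3.51e-06, 2.49e-10 and 1.29e-05). Cxcl10 had 3.40 ± 2.00 CPM in vehicle TG and 0.113 ± 0.0965 CPM in vehicle NAc (SD, n = 5 each). Cxcl10 and Cxcl11 lie within Art3, which is on the opposite strand. Their receptor Cxcr3 fell under the filter on low counts. Without that filter it was higher in TG of vehicle mice (log2 fold change 3.001 ± 0.85, SE, edgeR adjusted p = 0.0053).

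Ligands of monocytes and eosinophils were mostly higher in TG, 6 of 8 tested in vehicle mice with none lower. Ccl11 had 9.53, 9.98, 9.505, 8.51 and 8.115 CPM in vehicle TG, against 0.168, 0.121, 0.128, 0.241 and 0.217 CPM in vehicle NAc. The TG libraries were close together and all far above the NAc libraries, with a log2 fold change of 5.68 ± 0.22 (SE, edgeR adjusted p = 4.25e-14). Ccl2, the main ligand of Ccr2 on monocytes, had 0.877, 0.5575, 0.727, 0.690 and 0.6695 CPM in vehicle TG, against 0.0671, 0.0518, 0.0183, 0.0 and 0.0333 CPM in vehicle NAc. It was low in TG and at the floor in NAc (log2 fold change 4.30 ± 0.58, edgeR adjusted p = 2.25e-06). Ccl7 (4.30 ± 0.59), Ccl5 (2.13 ± 0.54), Ccl12 (1.73 ± 0.43) and Ccl6 (0.85 ± 0.20) were the others called, given as log2 fold change with SE. Ccl9 and Ccl24 did not pass in vehicle mice.

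The remaining CC ligands split, with 3 higher and 5 lower in TG of 9 tested. Ccl27a had 13.8, 13.5, 15.1, 14.3 and 15.2 CPM in vehicle TG, against 40.5, 33.1, 42.9, 42.2 and 43.5 CPM in vehicle NAc. The groups lay apart (log2 fold change -1.49 ± 0.07, SE, edgeR adjusted p = 8.83e-13), and the last 8 bases of Ccl27a overlap Il11ra1 on the opposite strand. Ccl25, the ligand of Ccr9, had 1.59 ± 0.241 CPM in vehicle TG and 2.91 ± 0.254 CPM in vehicle NAc (SD, n = 5 each, log2 fold change -0.87 ± 0.13, edgeR adjusted p = 9.41e-06). Of the lymphoid and dendritic cell ligands, Ccl21a (4.83 ± 1.05) and Ccl22 (1.44 ± 0.39) were called higher in TG and Ccl17 (-0.93 ± 0.38) lower. Ccl27b, the near copy of Ccl27a, was also called lower (-3.20 ± 0.41, all given as log2 fold change with SE). Ccl21a had 0 counts in TG vehicle 2 and 34 to 65 in the other vehicle TG libraries. The split of counts between Ccl21a and Ccl21b is uncertain, so their opposite directions are uncertain too. Ccl21b had 0 counts over the 5 vehicle TG libraries and 590 over the 5 vehicle NAc libraries. With a floor of 3 counts over the group it was at least 407-fold lower in TG of morphine mice and at least 234-fold lower in TG of vehicle mice. Ccl1, a ligand of Ccr8, had 65 counts in morphine TG and 0 in morphine NAc, at least 20-fold higher in TG on the same floor. Ccl28, a mucosal ligand of Ccr10 and Ccr3, had 3.15 ± 0.422 CPM in vehicle TG and 3.18 ± 0.364 CPM in vehicle NAc (SD, n = 5 each, edgeR adjusted p = 0.959).

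Receptors followed no single direction. Cxcr4 had 11.6, 8.84, 12.1, 12.9 and 15.1 CPM in vehicle TG, against 0.974, 0.811, 1.19, 1.01 and 0.583 CPM in vehicle NAc. Its groups lay apart (log2 fold change 3.73 ± 0.25, SE, edgeR adjusted p = 1.28e-10), although its ligand Cxcl12 was at like levels in both tissues. Ccr2, which draws monocytes and is also carried by some sensory neurons, had 3.93, 4.365, 4.72, 3.815 and 4.59 CPM in vehicle TG, against 0.453, 0.259, 0.348, 0.467 and 0.2665 CPM in vehicle NAc. It was higher in every TG library (log2 fold change 3.57 ± 0.19, edgeR adjusted p = 5.52e-12). Ccr1 (2.78 ± 0.35), Ccr10 (2.17 ± 0.25) and Cxcr6 (3.74 ± 0.69) were also called higher in TG, and Ccr9 (-0.46 ± 0.16) and Cxcr2 (-0.45 ± 0.12) lower. Ccr10 lies within Cntnap1, which is on the opposite strand.

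The atypical receptors split as well. Ackr1 had 97.7, 92.0, 103, 108 and 114.5 CPM in vehicle TG, against 40.3, 32.2, 38.1, 34.9 and 40.5 CPM in vehicle NAc. Every TG library lay above every NAc library (log2 fold change 1.47 ± 0.08, SE, edgeR adjusted p = 2.98e-12). Ackr1 shares 493 bases with Cadm3, a neuronal adhesion gene on the same strand, which had 698 ± 30.2 CPM in vehicle TG and 359.7 ± 24.7 CPM in vehicle NAc (SD, n = 5 each, log2 fold change 0.96 ± 0.06, edgeR adjusted p = 2.18e-11). The part of Cadm3 reads in the Ackr1 values was not tested. Ackr2, a scavenger of inflammatory CC ligands, had 0.297, 0.177, 0.162, 0.276 and 0.147 CPM in vehicle TG, against 4.80, 1.76, 2.99, 3.24 and 6.30 CPM in vehicle NAc. It was lower in every TG library and spread more than 3-fold within NAc (log2 fold change -4.16 ± 0.35, edgeR adjusted p = 4.31e-09). Of the Ackr2 counts, 2096.3 of 2200 in NAc and 47.6 of 120 in TG lay on 1 predicted RefSeq model. Its other models had 0.0 to 43.2 counts each in TG and 19.8 to 50.5 in NAc, so the gap rests mainly on that model. Ackr3, the scavenger of Cxcl12, had 6.36, 6.57, 6.00, 5.70 and 6.38 CPM in vehicle TG and 7.89, 7.49, 8.975, 8.68 and 7.60 CPM in vehicle NAc. The groups did not overlap but lay close (log2 fold change -0.39 ± 0.10, edgeR adjusted p = 0.0017). Ackr4, which removes Ccl19, Ccl21 and Ccl25, was called higher in TG of vehicle mice (0.77 ± 0.30, edgeR adjusted p = 0.0291).

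The other 16 genes had 12 to 197 counts over all 20 libraries and fell under the filter on low counts: Ccl3, Ccl4, Ccl8, Ccl19, Ccl20, Ccl26, Ccr3, Ccr6, Cxcl1, Cxcl2, Cxcl3, Cxcl15, Cxcl17, Cxcr3, Cxcr5 and Xcl1. Tested without that filter in vehicle mice, 5 of the 16 passed, beside 23936 of 42479 features in the same fit. Cxcr3, Ccl26 (2.70 ± 0.79) and the Xcr1 ligand Xcl1 (3.17 ± 0.85) were higher in TG, and Ccr6 (-3.37 ± 1.18) and Cxcl3 (-3.04 ± 1.11) lower, given as log2 fold change with SE (edgeR adjusted p = 0.0035 for Xcl1, 0.0086 for Ccl26, 0.0201 for Ccr6 and 0.0294 for Cxcl3). These rest on few counts, and Cxcl3 had 1 count over the 5 vehicle TG libraries and 12 over the 5 vehicle NAc libraries. Beside these values, markers of other cells also differed between the tissues. Genes of fibroblasts and meninges summed to 636 to 914 CPM in TG and 68.7 to 104 CPM in NAc over 6 genes, and neutrophil markers to 1.21 to 57.2 CPM in TG and 0.0623 to 0.331 CPM in NAc over 7 genes, with Ly6g at 0 in NAc. The 5 markers of all macrophages summed to 22.5 to 86.1 CPM in TG and 73.0 to 109 CPM in NAc. The 6 markers of tissue macrophages went the other way, at 25.6 to 34.5 CPM in TG and 5.85 to 13.1 CPM in NAc. The part of these cells in the tissue differences was not tested.

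**Figure D2:**
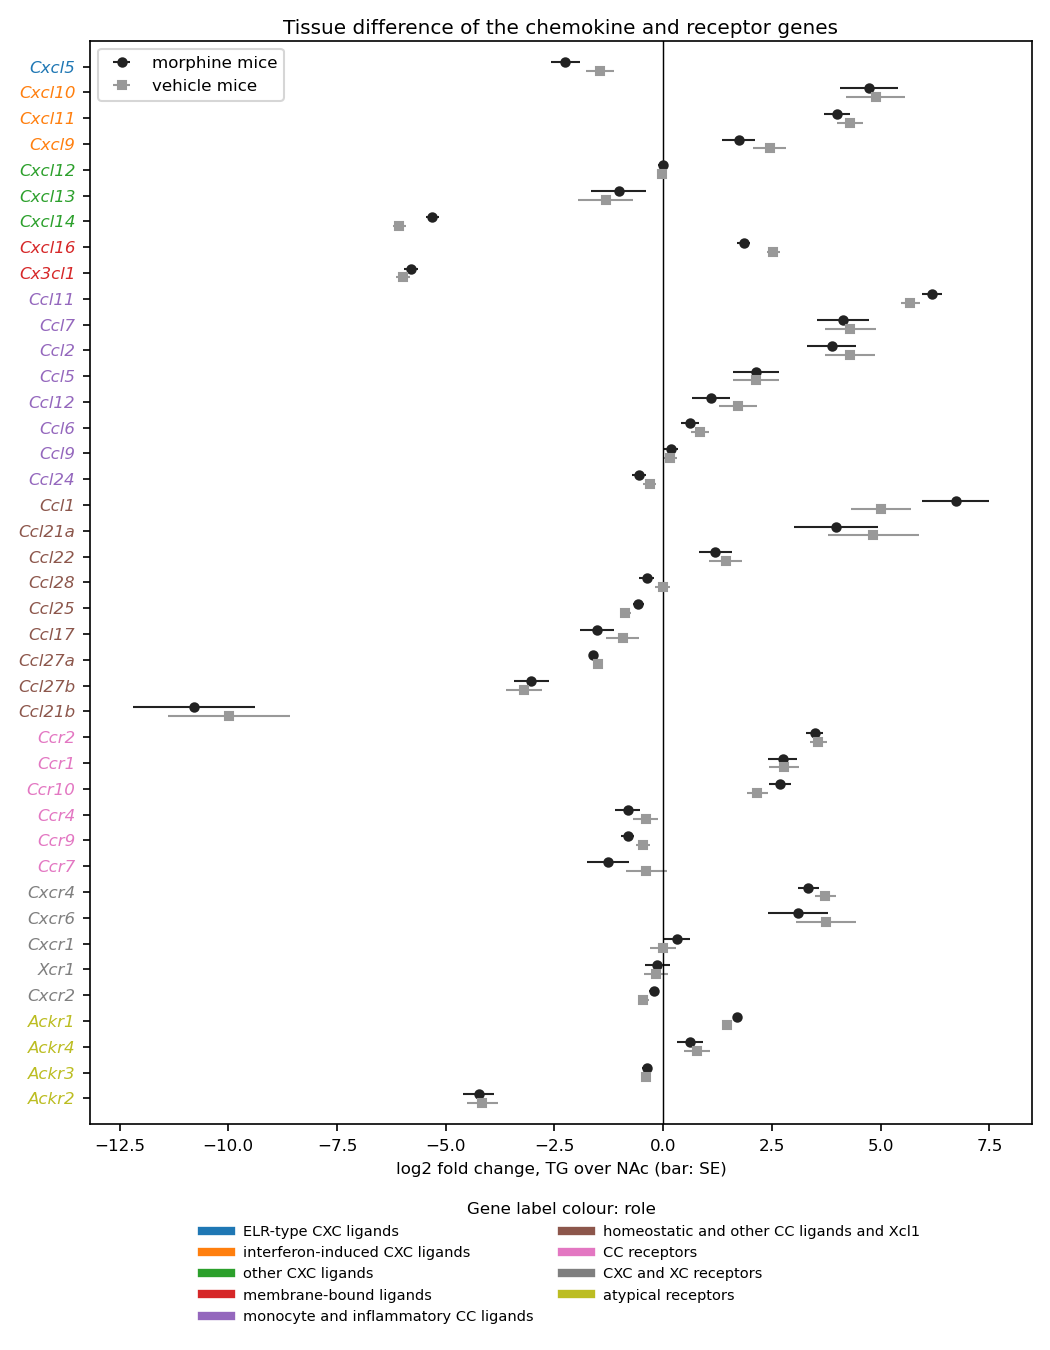
Log2 fold change of TG over NAc for tested genes with SE as bars, in morphine mice and in vehicle mice, gene labels coloured by role. Interferon-induced ligands lay to the right of 0 and Cx3cl1 and Cxcl14 far to the left, while the fitted values of Ccl21b, and of Ccl1 in morphine mice, rest on a group at 0 counts and are no bounds.

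Promoters are shown for 2 ligands and a receptor with wide gaps between the tissues and for a pair of interferon-induced ligands. They are RefSeq windows in GRCm38.p6 from 250 bases before to 50 after the transcript start, read 5′ to 3′ on the gene's strand, and 43 of the 58 genes had one. Capitals mark the letters TATAAA in Cx3cl1, Cxcr4 and Cxcl9. Counted from the transcript start, they begin at base -6 in Cx3cl1, at -32 and -30 in Cxcr4 and at -195 in Cxcl9. In Cxcl14 and Cxcl10 they mark the core of an interferon-stimulated response element, searched as 2 GAAA blocks with any 2 bases between them, which begin at base -172 in Cxcl14 and -213 in Cxcl10. In Cxcr4 the capitals cover 2 overlapping matches, 1 on each strand. The RefSeq genes lie at chr8:94772180-94782427 (Cx3cl1), chr13:56288643-56296811 (Cxcl14), chr1:128588199-128592299 (Cxcr4) and chr5:92346638-92348889 (Cxcl10). The Cxcl14 window, chr13:56296502-56296801, lies wholly inside the span of its gene on the minus strand, so it starts from a transcript other than the outermost one.
Cx3cl1 (chr8:94771930-94772229, plus strand): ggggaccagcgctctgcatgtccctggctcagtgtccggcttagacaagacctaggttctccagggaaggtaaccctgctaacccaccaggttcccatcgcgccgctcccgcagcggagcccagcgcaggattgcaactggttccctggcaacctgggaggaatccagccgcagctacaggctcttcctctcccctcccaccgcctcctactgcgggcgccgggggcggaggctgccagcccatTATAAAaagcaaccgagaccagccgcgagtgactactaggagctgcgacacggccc
Cxcl14 (chr13:56296502-56296801, minus strand): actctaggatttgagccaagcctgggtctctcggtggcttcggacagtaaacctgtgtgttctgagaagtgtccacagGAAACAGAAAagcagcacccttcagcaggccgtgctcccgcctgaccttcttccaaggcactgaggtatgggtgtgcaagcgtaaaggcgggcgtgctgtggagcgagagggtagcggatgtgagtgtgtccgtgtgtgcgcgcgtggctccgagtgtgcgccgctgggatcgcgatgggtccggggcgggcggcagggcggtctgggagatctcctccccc
Cxcr4 (chr1:128592250-128592549, minus strand): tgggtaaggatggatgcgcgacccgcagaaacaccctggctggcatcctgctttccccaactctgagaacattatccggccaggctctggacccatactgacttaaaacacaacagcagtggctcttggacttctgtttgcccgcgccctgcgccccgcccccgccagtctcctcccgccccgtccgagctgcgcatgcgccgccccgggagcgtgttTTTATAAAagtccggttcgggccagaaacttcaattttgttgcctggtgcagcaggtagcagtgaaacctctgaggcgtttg
Cxcl10 (chr5:92348840-92349139, minus strand): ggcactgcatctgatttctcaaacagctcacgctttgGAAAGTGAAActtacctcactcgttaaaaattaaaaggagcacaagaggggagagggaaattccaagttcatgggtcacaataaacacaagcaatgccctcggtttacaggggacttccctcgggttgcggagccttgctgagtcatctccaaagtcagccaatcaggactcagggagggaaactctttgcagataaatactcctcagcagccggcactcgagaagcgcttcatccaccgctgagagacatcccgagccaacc
Cxcl9 (chr5:92328030-92328329, minus strand): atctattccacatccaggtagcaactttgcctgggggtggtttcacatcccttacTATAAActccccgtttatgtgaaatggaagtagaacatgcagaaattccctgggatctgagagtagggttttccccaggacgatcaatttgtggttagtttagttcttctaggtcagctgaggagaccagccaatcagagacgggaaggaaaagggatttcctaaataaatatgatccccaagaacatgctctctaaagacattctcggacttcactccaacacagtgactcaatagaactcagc

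The 43 genes had 50 windows in all. Searched on both strands, TATAAA was in 14 of the 50 windows, beside 13.6% of the 32851 promoters in the table. The interferon-stimulated core was in 3 of the 50 (Ccl19, Cxcl10 and Cxcl14), beside 3.44% of all promoters. A core that NF-kappaB can bind was searched as GGG, any 2 bases and then TTTCC. It was in 6 of the 50 (Ccl9, Ccl20, Ccr3, Cxcl1, Cxcl2 and Cxcl3), beside 1.63% of all promoters. CG pairs also varied, with 22 in the Cxcl14 window, 20 in Cxcr4, 19 in Cx3cl1, 10 in Cxcl10 and 4 in Cxcl9. At least 4 CG pairs were in 68.6% of all promoters, and at least 22 in 23.1%. Such matches describe letters and are not evidence of binding in these tissues.

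In TG, no chemokine or receptor passed the test of morphine against vehicle. With edgeR's quasi-likelihood test, 0 of 38 genes tested were called, beside 0.18% of all features (0.153% higher and 0.0272% lower), and 0 also with DESeq2 and with limma voom. At an unadjusted p under 0.05 there were 4 genes, beside 10.1% of all features. Fold changes were positive for 11 genes and negative for 27, with a median log2 fold change of -0.13, beside -0.002 and 49.2% positive over all features. Medians of the single libraries had an SD of 0.15 on the log2 scale, and the shift of the median was not tested. The lowest single value was -0.72 ± 0.39 for Cxcr6 and the highest 0.62 ± 0.21 for Cxcl14 (SE). A further 20 genes fell under the filter on low counts in TG, with 0 to 142 counts over its 10 libraries.

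**Figure D3:**
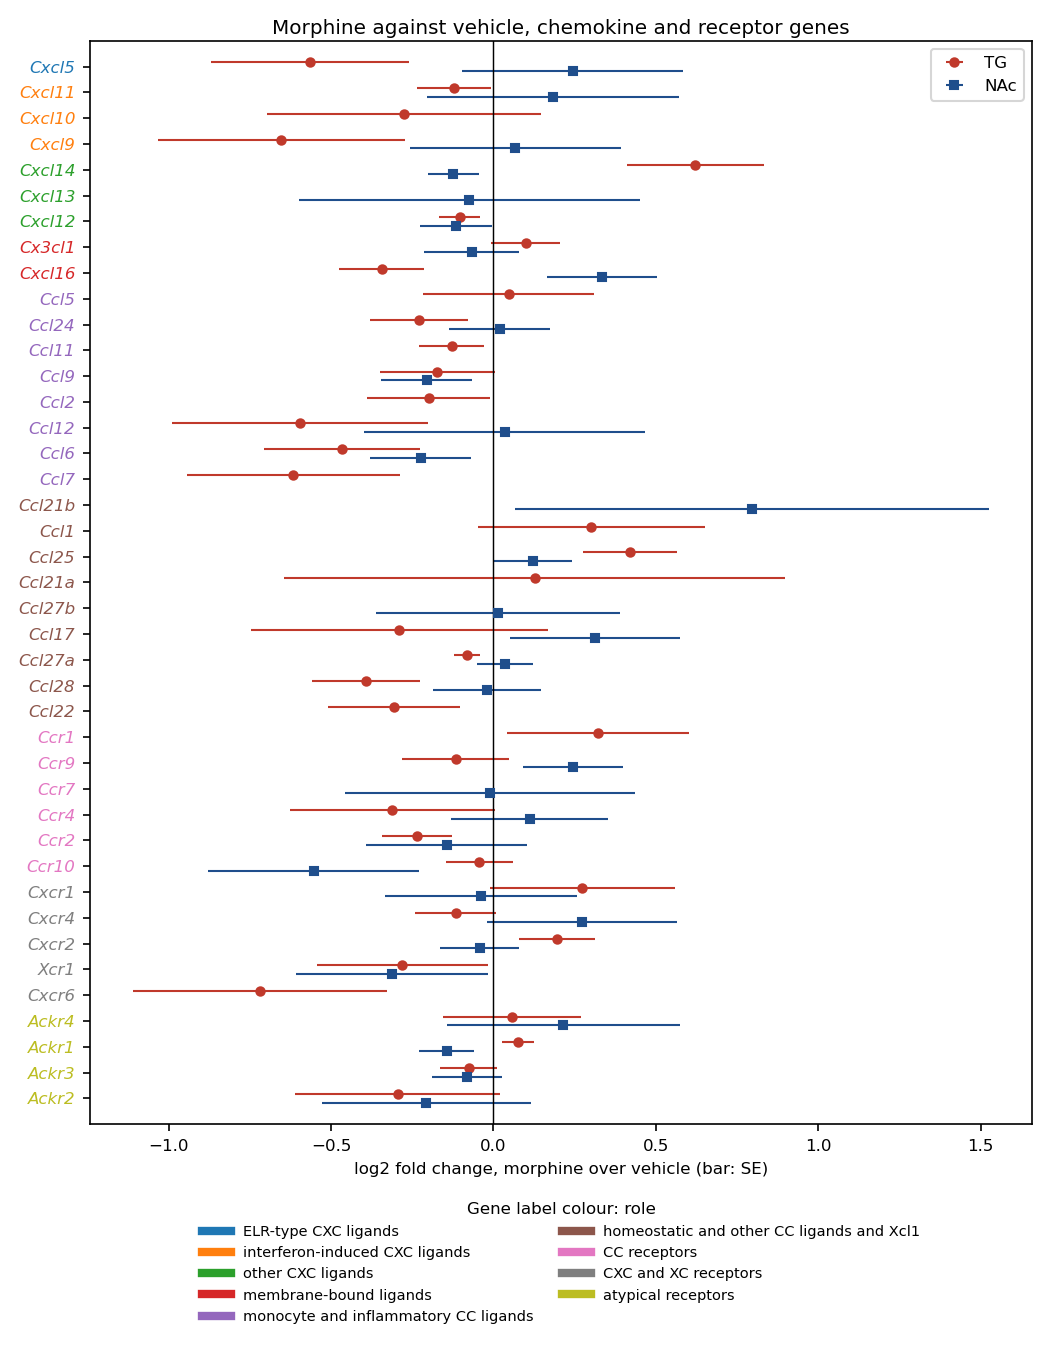
Log2 fold change of morphine over vehicle with SE as bars, for genes tested in TG (circles) and in NAc (squares), gene labels coloured by role. No gene passed the adjusted p of 0.05 in either tissue, and in TG most points lay left of 0.

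By role, all 3 interferon-induced ligands and 7 of the 8 tested ligands of monocytes and eosinophils had negative log2 fold changes in TG, with medians of -0.27 and -0.21. Without vehicle 1 these were 2 of 3 and 7 of 8, with medians of -0.05 and -0.14. Their levels varied within the groups. Cxcl9 had 0.840, 0.315, 1.31, 0.777 and 0.717 CPM in morphine TG, against 2.15, 0.732, 1.25, 1.17 and 0.934 CPM in vehicle TG. Cxcl10 had 2.45, 1.36, 3.29, 1.695 and 4.56 CPM in morphine TG, against 6.60, 1.79, 2.65, 2.665 and 2.43 CPM in vehicle TG. Cxcl11 had 3.13, 3.67, 3.315, 3.05 and 3.14 CPM in morphine TG, against 4.29, 3.26, 3.94, 3.25 and 3.02 CPM in vehicle TG. Vehicle 1 was the highest of the 10 libraries for all 3, and also for Ccl12 at 1.61 CPM, and the groups overlapped for each. The log2 fold change was -0.65 ± 0.38 for Cxcl9, -0.27 ± 0.42 for Cxcl10 and -0.12 ± 0.11 for Cxcl11 (SE, edgeR adjusted p = 0.625, 0.894 and 0.79). Without vehicle 1 it was -0.37 ± 0.36 for Cxcl9, 0.16 ± 0.34 for Cxcl10 and -0.05 ± 0.11 for Cxcl11 (edgeR adjusted p = 0.837, 0.946 and 0.951), so Cxcl10 turned its direction. Ccl12 had -0.60 ± 0.39 with that library and -0.11 ± 0.27 without it (edgeR adjusted p = 0.674 and 0.954). The median over the 38 genes was -0.11 without vehicle 1.

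**Figure D4:**
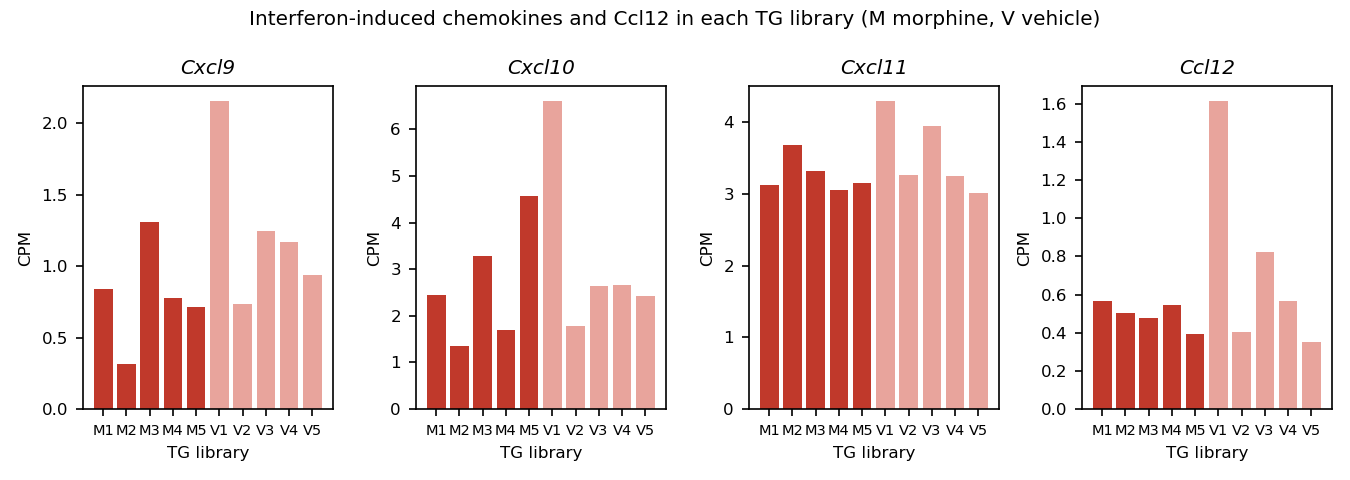
CPM of Cxcl9, Cxcl10, Cxcl11 and Ccl12 in each TG library, morphine 1 to 5 (M1 to M5, dark bars) and vehicle 1 to 5 (V1 to V5, light bars). Vehicle 1 had the tallest bar in every panel, with 6.60 CPM for Cxcl10.

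The 4 genes with the smallest p in TG were all ligands. Cxcl14, which has reported antimicrobial and chemotactic roles, had 1.03, 1.23, 1.31, 1.15 and 1.21 CPM in morphine TG, against 0.732, 0.641, 0.472, 1.01 and 0.995 CPM in vehicle TG. All morphine libraries lay above all vehicle libraries, though morphine 1 at 1.03 CPM and vehicle 4 at 1.01 CPM nearly met. It was the only one of the 38 genes whose groups did not overlap, beside 2.54% of all features. The log2 fold change was 0.62 ± 0.21 (SE, edgeR adjusted p = 0.349). Beside it, markers of medium spiny neurons, which belong to the tissue where Cxcl14 was abundant, summed to 39.1 to 43.5 CPM in morphine TG and 36.3 to 38.4 CPM in vehicle TG. None of the 6 tested was called, 5 were positive, and Rgs9 made up 52.2% of the sum. Their part in the Cxcl14 values was not tested.

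Ccl25 had 1.93, 2.10, 1.905, 1.695 and 2.46 CPM in morphine TG, against 1.63, 1.61, 1.23, 1.77 and 1.29 CPM in vehicle TG. Morphine libraries were mostly the higher ones, with morphine 4 inside the vehicle range (log2 fold change 0.42 ± 0.15, SE, edgeR adjusted p = 0.357). Cxcl16 had 3.49, 2.38, 3.27, 2.53 and 3.19 CPM in morphine TG, against 3.72, 4.11, 3.38, 3.36 and 4.32 CPM in vehicle TG. Only morphine 1 reached the vehicle range (log2 fold change -0.34 ± 0.13, edgeR adjusted p = 0.409). Ccl28 had 1.54, 2.21, 2.50, 2.21 and 2.92 CPM in morphine TG, against 2.52, 2.77, 2.97, 3.53 and 3.12 CPM in vehicle TG. Morphine 5 alone lay inside the vehicle range (log2 fold change -0.39 ± 0.17, edgeR adjusted p = 0.472).

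The ligand and receptor pairs overlapped between the groups in TG. Cxcl12 had 45.7, 45.4, 46.45, 51.0 and 55.4 CPM in morphine TG, against 51.75, 51.3, 48.3, 54.0 and 56.8 CPM in vehicle TG, with overlap (log2 fold change -0.10 ± 0.06, SE, edgeR adjusted p = 0.643). Its scavenger Ackr3 had 6.55, 5.42, 5.66, 5.46 and 4.79 CPM in morphine TG, against 6.06, 6.315, 5.65, 5.36 and 5.99 CPM in vehicle TG (-0.08 ± 0.09, edgeR adjusted p = 0.845). Cxcr4 had 11.3, 9.05, 11.8, 10.7 and 9.97 CPM in morphine TG, against 11.1, 8.50, 11.4, 12.2 and 14.2 CPM in vehicle TG (-0.12 ± 0.13, edgeR adjusted p = 0.829). All 3 genes overlapped between the groups. Ccl2 had 0.58 ± 0.123 CPM in morphine TG and 0.667 ± 0.11 CPM in vehicle TG, and its receptor Ccr2 had 3.44 ± 0.443 CPM in morphine TG and 4.06 ± 0.368 CPM in vehicle TG (SD, n = 5 each). The edgeR adjusted p was 0.796 for Ccl2 and 0.507 for Ccr2. Cx3cl1 had 10.45 ± 0.859 CPM in morphine TG and 9.75 ± 1.54 CPM in vehicle TG (edgeR adjusted p = 0.827). Its receptor Cx3cr1 had 6.51 ± 0.905 CPM in morphine TG and 8.29 ± 1.86 CPM in vehicle TG (log2 fold change -0.35 ± 0.15, edgeR adjusted p = 0.491).

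Cell markers moved beside these values in TG. The 6 markers of fibroblasts and meninges summed to 600.0 to 751 CPM in morphine TG and 772 to 879 CPM in vehicle TG, with all 6 negative. The 6 markers of tissue macrophages summed to 24.2 to 32.7 CPM in morphine TG and 24.2 to 31.2 CPM in vehicle TG, with 4 positive and 2 negative. Of the 6 microglia markers tested, 3 were positive and 3 negative. The 5 markers of all macrophages were all negative. They summed to 21.2 to 29.8 CPM in morphine TG and 29.2 to 82.75 CPM in vehicle TG, where vehicle 2 was the highest. That library also had the most Ccl6, a macrophage and neutrophil product, at 3.50 CPM. Ccl3, which fell under the filter in TG, had 103 counts there and 2 to 7 in each of the other TG libraries. The 7 neutrophil markers ran from 1.14 to 54.1 CPM in morphine TG and from 3.11 to 17.3 CPM in vehicle TG. None of these markers was called. The 3 markers of satellite glia, which wrap the sensory neurons, summed to 337 to 360.4 CPM in morphine TG and 373 to 430.4 CPM in vehicle TG, and the groups did not overlap. The list did not move as a whole, with 1 marker positive, 2 negative and a median log2 fold change of -0.03. Of them Fabp7, a fatty acid binding protein, was called lower, with 116 ± 10.1 CPM in morphine TG and 186 ± 9.05 CPM in vehicle TG (SD, n = 5 each, log2 fold change -0.68 ± 0.06, edgeR adjusted p = 0.00435). The 6 red blood cell markers summed to 496 to 1553 CPM in morphine TG and 384 to 697 CPM in vehicle TG. All 6 were positive and none was called, with a median log2 fold change of 0.96, beside 0.08 ± 0.05 (SE) for Ackr1. The part of these cells in the chemokine values was not tested.

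In NAc, no chemokine or receptor passed either. With edgeR 0 of 32 genes tested were called, beside 0.0% of all features, and 0 with DESeq2 and limma voom, which called 265 and 4 features in all. At an unadjusted p under 0.05 there was 1 gene, beside 5.71% of all features. Log2 fold changes were positive for 15 genes and negative for 17, with a median of -0.015, beside -0.007 over all features. The 26 genes not tested had 1 to 94 counts over the 10 NAc libraries.

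Cxcl16 had 0.783, 0.929, 1.18, 0.813 and 0.872 CPM in morphine NAc, against 0.797, 0.677, 0.580, 0.748 and 0.8298 CPM in vehicle NAc. The groups overlapped through morphine 1 and morphine 4 (log2 fold change 0.33 ± 0.17, SE, edgeR adjusted p = 0.926). Ccr10 had 0.433, 0.348, 0.2299, 0.235 and 0.428 CPM in morphine NAc, against 0.602, 0.6401, 0.599, 0.223 and 0.406 CPM in vehicle NAc. Vehicle 4 was below the lowest morphine library (-0.55 ± 0.33, edgeR adjusted p = 0.948). Ackr1 had 36.5, 34.8, 41.0, 31.3 and 34.4 CPM in morphine NAc, against 42.6, 34.1, 40.3, 36.9 and 42.9 CPM in vehicle NAc. Its groups overlapped over most of their range (-0.14 ± 0.09, edgeR adjusted p = 0.952).

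**Figure D5:**
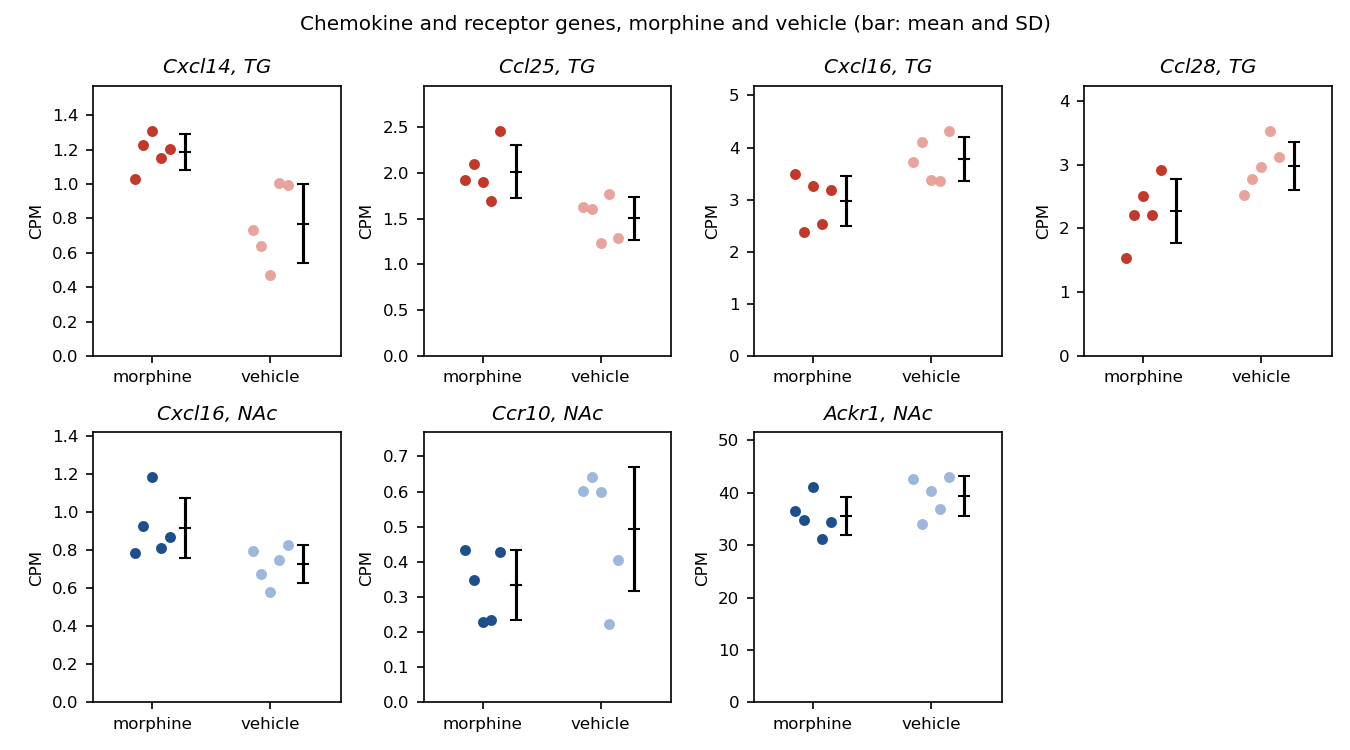
CPM in each library for the 4 genes with the smallest p for morphine in TG (upper row) and for Cxcl16, Ccr10 and Ackr1 in NAc (lower row), morphine left and vehicle right, with mean and SD of 5 libraries as bars. Among these panels the groups lay apart only for Cxcl14 in TG.

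The abundant ligands of NAc overlapped between the groups. Cx3cl1 had 638, 660.2, 738, 611 and 619.7 CPM in morphine NAc, against 709, 445, 707, 715 and 847 CPM in vehicle NAc. The morphine libraries lay inside the range of the vehicle libraries, of which vehicle 2 was the lowest and vehicle 5 the highest (log2 fold change -0.07 ± 0.15, SE, edgeR adjusted p = 0.998). The same vehicle libraries had the lowest and the highest sum of medium spiny neuron markers, 1304 CPM in vehicle 2 and 4252 CPM in vehicle 5, against 2454 to 3109 CPM in morphine NAc, and the part of these neurons was not tested. Cxcl14 had 56.8, 52.8, 50.8, 52.1 and 50.7 CPM in morphine NAc, against 66.05, 51.1, 58.65, 61.2 and 50 CPM in vehicle NAc, with overlap (-0.12 ± 0.08, edgeR adjusted p = 0.959). Ccl21b had 3.65, 3.95, 6.68, 2.69 and 1.74 CPM in morphine NAc, against 3.24, 2.63, 3.13, 0.0477 and 1.73 CPM in vehicle NAc. Vehicle 4 held almost none, morphine 3 the most, and the SE was nearly as large as the log2 fold change (0.80 ± 0.73, edgeR adjusted p = 0.998). Ackr2 ran from 2.71 to 4.82 CPM in morphine NAc and from 1.87 to 6.67 CPM in vehicle NAc (edgeR adjusted p = 0.998).

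Markers of cells of nerve and ganglion were low in NAc and also differed between libraries. The 4 Schwann cell markers summed to 24.7 to 31.65 CPM in morphine NAc and 34.7 to 57.3 CPM in vehicle NAc, and all 4 were negative with none called. The 7 sensory neuron markers summed to 6.24 to 9.70 CPM in morphine NAc and 7.68 to 17.1 CPM in vehicle NAc. The 7 microglia markers were all negative in NAc, as were the 6 of fibroblasts and meninges and the 4 of oligodendrocytes. Endothelial markers were 2 positive and 4 negative. They summed to 120.2 to 131.1 CPM in morphine NAc and 131.4 to 155.8 CPM in vehicle NAc. Tissue macrophage markers were 4 positive and 1 negative, and those of all macrophages 2 positive and 3 negative. None was called, and the part of these cells in the chemokine values was not tested.

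Whether morphine acted differently in TG and NAc was tested on all 20 libraries as the effect in TG minus that in NAc. With edgeR 0 of 42 genes were called, beside 0.0394% of all features (0.0333% higher and 0.00606% lower), and 2 genes had an unadjusted p under 0.05, beside 6.81% of all features. Cxcl14 had the smallest p, with a difference in log2 fold change of 0.75 ± 0.20 (SE, edgeR adjusted p = 0.305), and DESeq2 called it (0.76, DESeq2 adjusted p = 0.00469). It was the only one of the 58 genes that DESeq2 called here, beside 239 of 42479 features in all, and limma voom called none. Cxcl16, with a negative effect in TG and a positive one in NAc, differed by -0.68 ± 0.21 (edgeR adjusted p = 0.439). Ackr1 differed by 0.22 ± 0.11 and Ccl11 by 0.51 ± 0.28 (edgeR adjusted p = 0.735 and 0.825). Over the 42 genes the median difference was -0.13, beside 0.01 over all features and an SD of library medians of 0.21 (log2).

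Genes that carry or end chemokine signals were followed as a list of 52, of which 50 were in the table. They include G protein subunits, arrestins, receptor kinases, the Rac activators Dock2 and Elmo1, and the sheddases Adam10 and Adam17 that cut Cx3cl1 and Cxcl16 from the membrane. With edgeR 0 of 49 tested were called for morphine in TG, 0 of 47 in NAc and 0 of 49 for the difference between the tissues. The median log2 fold change was -0.03 in both TG and NAc. In TG the smallest p belonged to Grk5, a receptor kinase, with 28.55 ± 0.41 CPM in morphine TG and 30.45 ± 0.591 CPM in vehicle TG (SD, n = 5 each), and its groups did not overlap (log2 fold change -0.09 ± 0.02, edgeR adjusted p = 0.182). Adam17 had 31.2 ± 1.59 CPM in morphine TG and 35.3 ± 1.82 CPM in vehicle TG (-0.18 ± 0.05, edgeR adjusted p = 0.201). In NAc it had the smallest p, with 21.8 ± 1.13 CPM in morphine NAc and 24.2 ± 1.03 CPM in vehicle NAc (-0.15 ± 0.05, edgeR adjusted p = 0.763). The groups of Adam17 overlapped in TG and just missed each other in NAc. Plcb3, a phospholipase downstream of the receptors, followed in NAc with 19.4 ± 0.477 CPM in morphine NAc and 21.35 ± 1.23 CPM in vehicle NAc (-0.14 ± 0.05, edgeR adjusted p = 0.778). Between the tissues of vehicle mice, 25 of the 49 were called higher in TG and 18 lower, beside 32.9% and 34.5% of all features. Plcb3 (4.05 ± 0.06) and Stat3 (2.54 ± 0.04) had the smallest p, given as log2 fold change with SE.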

How the data were processed

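RNA was measured in TG and NAc of 10 mice. Per the labels' protocols, strand-specific mRNA libraries were sequenced on an Illumina HiSeq, and per the submitters' processing notes kallisto 0.43 and build GRCm38 were used. The authors deposited expected counts (reads estimated per RefSeq transcript and not normalised), of which 56.7% were not whole numbers. The sources differ on whether 1 or both ends were read, and which libraries ran on which lanes is not stated there, so no batch could be fitted.

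Counts of a gene's transcripts were added up through RefSeq's GRCm38.p6 annotation (86608 of 107185 matched, 151 of them through the RefSeq table of GENCODE M21, with 90.0% of counts). Unmatched transcripts stayed as features of their own. Sums were rounded and tested with edgeR 4.0.16 in R 4.3.3 (filterByExpr, TMM, robust glmQLFit and glmQLFTest, 2-sided, Benjamini-Hochberg over all features, threshold 0.05). Treatment was fitted on the 10 libraries of a tissue, and the tissue differences and the difference in effect on all 20 with 4 group means. SE is the log2 fold change over the root of F. CPM and marker sums use TMM factors, of 1 tissue for treatment and of all libraries between tissues. TPM were computed from the counts and GENCODE M21 transcript lengths. A gene's length was taken from those of its transcripts that had a GENCODE length. For Cxcl14 the only such transcript held 0 of 643 counts in TG and 7972 of 32117 counts in NAc, so its TPM is uncertain. Scripts were tested on simulated counts. DESeq2 1.42.0 and limma 3.58.1 (voom) were alternatives.

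The genes, lists and tests were chosen with earlier results of these data known. Per-library values are given for the 4 smallest p per treatment comparison, 5 per direction between tissues, the 8 highest TPM per tissue and the pairs Cxcl12 with Cxcr4 and Ackr3, Cx3cl1 with Cx3cr1, and Ccl2 with Ccr2. Of the partner list, 2 genes per comparison are named. Some results that these rules select are not reported here. The labels' mouse codes pair TG and NAc samples of the same animal, and their deviations correlated between -0.0375 and 0.023. Chi-square per gene between replicates lay between 12.3 and 137, where counting error gives about 1, and all libraries counted as separate samples. In the annotation 18 of the genes overlap another gene, 13 of them a protein-coding gene on the opposite strand, and the strand setting of the authors' counting was not stated. Reads were not counted as molecules, so floors cover counting error only.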

Additional observations from a re-analysis of the deposited data

Results flagged for a closer look

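Of 72 groups of 5 libraries (the named genes with a mean of at least 0.1 CPM in a group), 3 held a library that stood apart from the other 4, with a gap to the nearest above 0.71 of the group's range. Chance flags about 1 in 20 groups. Cxcl10 was at 6.60 CPM in TG vehicle 1, above the other vehicle TG libraries at 1.79 to 2.67 CPM. Ccr10 was at 2.37 CPM in TG vehicle 5, above the others at 1.82 to 1.93 CPM. Ccl28 was at 2.67 CPM in NAc vehicle 4, below the others at 3.46 to 3.62 CPM.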

How the results depend on the processing

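No called difference turned its direction, but 3 medians over the genes did. That for morphine in NAc was -0.015, and 0.01 with voom, 0.003 with the replicate block and 0.01 to 0.04 without morphine 3, vehicle 1 or vehicle 5. For morphine in TG and in NAc, 0 chemokine and receptor genes were called under every alternative and without each library in turn, and leaving 1 library out moved the median log2 fold change between -0.17 and -0.09 in TG and between -0.08 and 0.04 in NAc. For the difference in effect, DESeq2 called 1 gene, Cxcl14 at 0.76 (adjusted p = 0.00469), whose adjusted p ran from 0.182 to 0.495 without each library and from 0.00469 to 0.915 over the other alternatives. Between tissues 32 to 35 genes in morphine mice and 31 to 33 in vehicle mice passed without each library. The median over the genes was 0.55 (DESeq2), 0.53 (no filter) and -0.21 (23 genes with at least 1 CPM) in morphine mice, and 0.48 (DESeq2) and 0.46 (no filter) in vehicle mice, so it depends on which genes enter. It was 0.25 in morphine and 0.07 in vehicle mice with genes at 0 in a whole group set to their bound. With library size as the sole scaling, the median of all features in vehicle mice was -0.21 in place of -0.06, and that of the genes -0.08, in place of 0.07. It was -0.03 in vehicle mice with genes of at least 1 CPM. With the mouse (for treatment, the number) as a replicate block, 0 genes were called for morphine in TG, 0 in NAc and 0 for the difference, 34 between tissues in morphine mice and 32 in vehicle mice. Same-numbered morphine and vehicle libraries share only a number, with correlations of -0.0207 to 0.0295 in TG and 0.00375 to 0.125 in NAc. Over all features, calls in TG were 53 with edgeR, 711 with DESeq2, 81 with voom, 123 with named genes alone, 2 with the block and 19 to 77 without each library. In NAc they were 0 with edgeR, 265 with DESeq2, 4 with voom, 3 with named genes alone and 73 in the fit on all 20 libraries. For the difference in effect they were 13 with edgeR, 239 with DESeq2, 0 with voom, 8 with library size alone or no filter, 1 with the block and 6 to 33 without each library. The causes of these shifts were not tested. With the longest transcript model as length, Ccl27a had 63.6 TPM in TG and 223 TPM in NAc, Cxcl12 28.4 and 34.55 TPM, and the same 8 genes were highest in each tissue. With no filter, 5 of the 16 genes with at most 197 counts in all passed between tissues of vehicle mice, beside 23936 of 42479 features. The other 11 did not pass at this depth.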
